A study of Mus musculus with 9 samples.

Results

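The 32 genes described here encode components of the basement membrane and the integrins that attach epithelial cells to matrix. They were taken by name from the 18423 genes of a deposited RNA sequencing table, and all 32 were found in it. They comprise 6 collagen IV chains, collagen XVIII (Col18a1), 9 laminin chains, the linkers Nid1 and Nid2, the heparan sulfate proteoglycans Hspg2 and Agrn, dystroglycan (Dag1), 6 integrin alpha chains and 5 integrin beta chains. Levels are FPKM, a gene's fragments divided by its transcript length and by the size of the library. Levels of different genes can be set side by side only as far as the length used fits the transcripts made, which was not checked.

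Poly(A) RNA came from glands of the mouse stomach corpus, the acid-secreting body of the stomach, in 9 libraries of 3 genotypes. Glands were freed with 20 mM EDTA for 30 minutes and scraped from tumour-bearing corpus, or from the matching region of normal stomachs. The series title names the dosage of Arid1a, a chromatin remodelling subunit, in gastric tumour formation. The wild type group (WT, 3 libraries) carried no transgene per the labels. The group called Ctrl (3 libraries) carried Atp4bCre, a Cre recombinase driven from the gene of the parietal cell proton pump's beta subunit, and Rosa26NICD, an allele for the active intracellular domain of Notch. The Arid1a_Het group (3 libraries) carried Atp4bCre, Rosa26NICD and Arid1aflox/+, that is, 1 loxP-flanked and 1 normal copy of Arid1a, so Ctrl and Arid1a_Het share both transgenes. Cre acts in parietal cells and their descendants, while the libraries hold RNA of the whole gland scrape. Judged by its sample number, Arid1a_Het 3 was registered later than the rest, and whether it was prepared apart from them is not in the labels. Age and sex are not in the labels, nor is it stated whether libraries of 1 genotype are separate mice. The p-values therefore reflect library-to-library spread, part of which may be technical.

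A basement membrane is the thin sheet of matrix under every epithelium and around vessels and muscle. Laminin, a trimer of an alpha, a beta and a gamma chain, and collagen IV, a trimer of alpha chains, each form a network, and nidogen and perlecan (Hspg2) join the networks. Integrins are receptors of an alpha and a beta chain: alpha3 beta1 and alpha6 beta4 bind laminin, alpha1 beta1 and alpha2 beta1 bind collagen, and alpha5 beta1 and the alphav integrins bind fibronectin and related ligands. Laminin-332, which holds Lama3 and Lamb3, is the main laminin of hemidesmosomes, the anchors in which alpha6 beta4 sits. Fibroblasts, endothelium and smooth muscle also make many of these chains, so stromal cells carried along with the glands contribute to their levels.

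The libraries held 22651385 to 29478481 reads. The targeted gene Arid1a was at 7.79 to 13.5 FPKM in WT, 13.3 to 16.2 in Ctrl and 5.9 to 8.94 in Arid1a_Het, and Nrarp, a Notch target, was at 3.8 to 9.06, 113 to 194 and 161 to 263. The corpus label was met by all 10 gland markers in the table, although Tff1, a peptide of surface mucous cells, was at 0.31 to 2.0 FPKM. Atp4b of parietal cells was called lower in Ctrl than in WT (log2 fold change -3.62, SE 0.96, adjusted p = 0.0443, limma) and the epithelial gene Epcam higher (1.27, SE 0.24, adjusted p = 0.016). Summed FPKM of 11 fibroblast markers was 57.2, 99.9 and 9.45 in WT 1 to 3, 20.0, 11.6 and 21.2 in Ctrl and 4.42, 32.1 and 60.1 in Arid1a_Het. Summed FPKM of 12 pancreas genes was 4210.2 in Ctrl 1 and 1622 in Arid1a_Het 3, against 81.3 to 329 elsewhere. Krt5 of basal squamous cells was at 10.7 in WT 1, 60.9 in Arid1a_Het 3 and between 0.0393 and 4.57 in the rest.

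**Figure D1:**
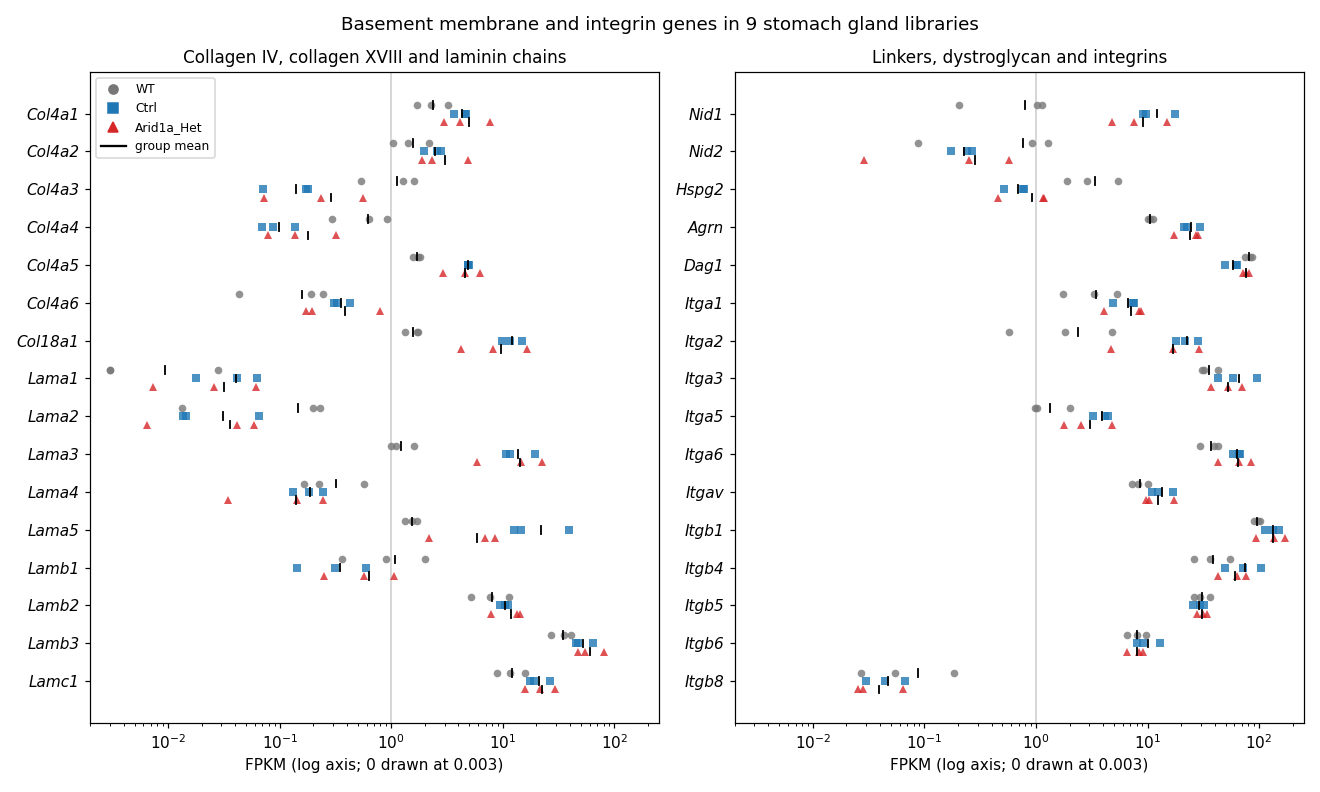
FPKM of the 32 genes on a log axis, with 1 point per library, coloured and shaped by genotype, and a black line at each group mean. Lama3, Lama5, Col18a1, Nid1 and Agrn show all 3 Ctrl libraries to the right of all 3 WT libraries, and the faint chains (Lama1, Lama2, Lama4, Itgb8) lie below 1 FPKM in every library.

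Ctrl differs from WT in both transgenes, Atp4bCre and Rosa26NICD, and glands came from tumour-bearing corpus or from normal stomachs. Effects of Cre, of the Notch transgene and of tumour tissue cannot be told apart in this comparison. The laminin alpha chains Lama3 and Lama5, nidogen 1, collagen XVIII, agrin, collagen IV alpha5 and the integrin chains Itga2 and Itga5 rose in Ctrl, and perlecan fell. Of the 32 genes, 23 reached 1 FPKM in at least 3 libraries and were tested in limma, and 8 rose, 1 fell and 14 were not called. Over all 11209 tested genes, 7.01% rose and 3.04% fell (10.1% either way). The WT and Ctrl libraries did not overlap for 15 of the 23 on the higher side and 2 on the lower, against 33.5% and 10.2% of all tested genes. The median log2 fold change was 0.78 over the 23 genes and 0.24 over all tested genes, and 20 of the 23 were positive, as were 7991 of the 11209. Under median-ratio scaling these medians were 0.52 and 0.01, and the share of all calls that were higher went from 69.7% to 50.0% (44.7% under quantile normalization). With the replicate numbers as a block, 13 genes were called higher and 2 lower. Over all tested genes the calls also grew, from 786 to 1804 higher and from 341 to 669 lower. The numbers were taken to pair WT and Ctrl libraries on these data alone. Those of Arid1a_Het, in the same fit, did not pair. Calls with the block therefore describe and do not support. Genes that passed the filter only where they were high had to differ, so these counts describe the tested genes and support no statement on all 32. Bulk values cannot tell a change in the number of cells of a type from a change in RNA per cell.

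**Figure D2:**
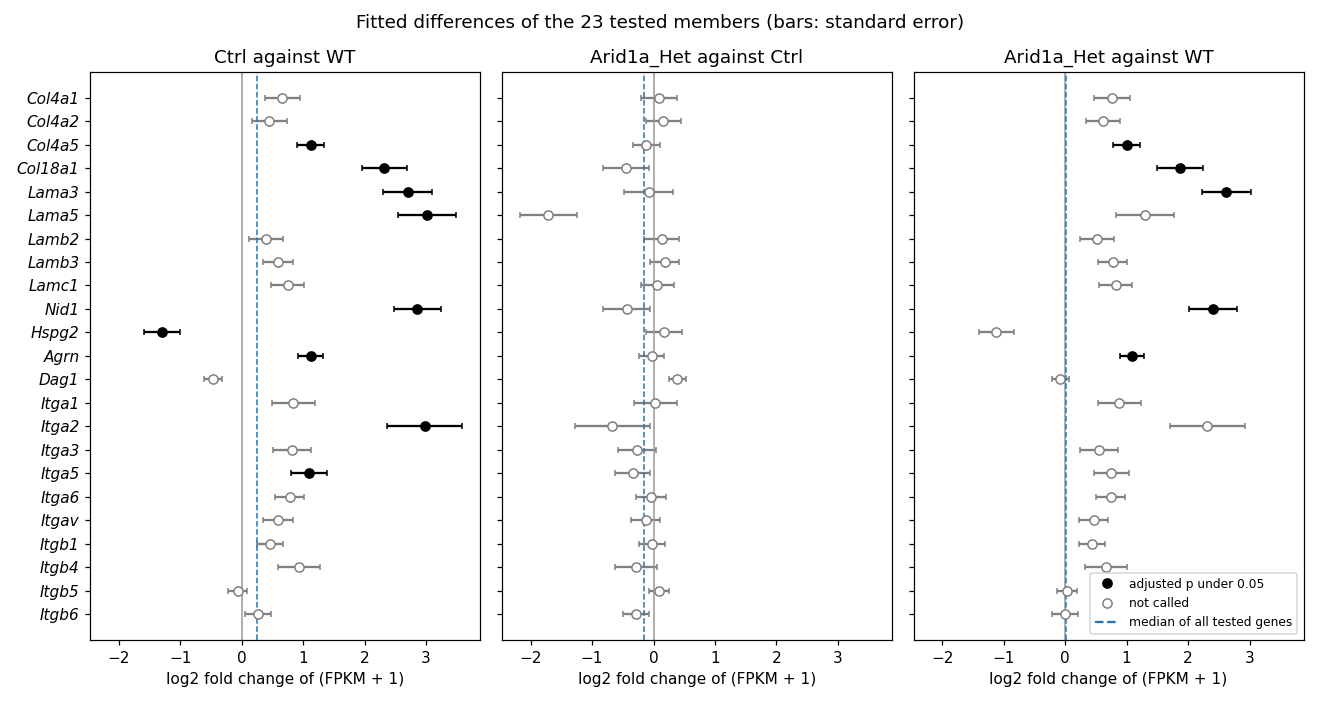
Log2 fold change of (FPKM + 1) with its standard error for the 23 tested genes in each comparison. Filled points have an adjusted p under 0.05 in limma, and the dashed line is the median of all tested genes (0.24, -0.16 and 0.02). The first and last comparisons share WT, and the middle one has no filled point.

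Collagen IV exists as several trimers in mammals, built from alpha1 and alpha2, from alpha3, alpha4 and alpha5, and from alpha5 and alpha6. Each pair of genes sits head to head on 1 chromosome. Col4a1 and Col4a2, the ubiquitous chains, were at 1.04 to 3.21 FPKM in WT, 1.98 to 4.7 in Ctrl and 1.9 to 7.74 in Arid1a_Het, and neither was called in any comparison. For Col4a1 the log2 fold change in Ctrl was 0.66 (SE 0.29, adjusted p = 0.152). Their gene models on chromosome 8 share 22 bases, and whether reads there were assigned by strand is not given in the sources used here. Col4a1 stood at 1.46 to 1.83 times the level of Col4a2 in all 9 libraries.

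Col4a5 (chrX:141475385-141689234, GRCm38), the chain found in both of the other trimers, was at 1.75, 1.57 and 1.79 FPKM in WT, 4.93, 4.82 and 4.83 in Ctrl, and 4.55, 2.9 and 6.29 in Arid1a_Het. The 3 WT libraries lay below all 6 others. It rose in Ctrl by a log2 of 1.12 (SE 0.22, adjusted p = 0.0168, limma). That call was lost, with adjusted p up to 0.0684, when WT 2, WT 3 or any single Ctrl library was left out. Col4a6, its partner, held 8 to 184 reads a library and was not tested. It was at 0.0432 to 0.243 FPKM in WT, 0.306 to 0.426 in Ctrl and 0.171 to 0.794 in Arid1a_Het. Ctrl lay above WT, and Arid1a_Het overlapped both. Fitted in limma without the filter, its log2 fold change in Ctrl was 0.23 (SE 0.16, adjusted p = 0.379).

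Col4a3 and Col4a4, known best from the glomerular basement membrane of the kidney, went the other way in level. Col4a3 was at 0.531, 1.59 and 1.27 FPKM in WT, 0.0708, 0.18 and 0.171 in Ctrl, and 0.235, 0.553 and 0.0725 in Arid1a_Het. Col4a4 was at 0.296, 0.913 and 0.633 in WT, 0.0873, 0.137 and 0.0697 in Ctrl, and 0.138, 0.32 and 0.0778 in Arid1a_Het. All WT libraries lay above all Ctrl libraries for both genes, and Arid1a_Het 2 overlapped WT. The Ctrl mean was 0.125 of the WT mean for Col4a3 and 0.16 for Col4a4. Both fell short of the filter, on 16 to 416 and 20 to 255 reads a library. Fitted without the filter, their log2 fold changes in Ctrl were -0.87 (SE 0.2, adjusted p = 0.0574) and -0.54 (SE 0.14, adjusted p = 0.068), neither called.

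The starts of these 2 genes on chromosome 1 lie 71 bases apart on opposite strands, so the same short stretch lies upstream of both. It is shown because both genes had the same order of levels over groups. It is the reference sequence between the starts from RefSeq promoters on GRCm38.p6, chr1:82586850-82586920, read on the minus strand, the strand of Col4a4, and it holds none of the motifs searched below.
Col4a3 and Col4a4: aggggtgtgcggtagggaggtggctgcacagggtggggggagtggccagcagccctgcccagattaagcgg

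As a share of the collagen IV FPKM sum, Col4a3 and Col4a4 together made up 12.9, 25.7 and 29.4% in WT, 1.25, 2.87 and 1.87% in Ctrl, and 3.76, 8.35 and 0.758% in Arid1a_Het. Every WT library was above the 6 others. The share of Col4a5 was 23.7% ± 6.5 (SD, n = 3) in WT, 40.0% ± 3.18 in Ctrl and 35.1% ± 9.49 in Arid1a_Het, with Ctrl above all WT libraries. Col4a1 and Col4a2 together kept 42.3 to 63.5% in the 9 libraries. Shares of 1 sum are tied to each other, and no test was made of them.

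Col18a1 (chr10:77052178-77166548), a heparan sulfate collagen of epithelial and vascular basement membranes and the source of endostatin, was at 1.72, 1.7 and 1.32 FPKM in WT. In Ctrl it was at 11.5, 9.82 and 14.9, and in Arid1a_Het at 8.22, 4.25 and 16.4. All 6 transgenic libraries lay above WT. It rose in Ctrl by a log2 of 2.32 (SE 0.37, adjusted p = 0.00789, limma), a call kept in all 23 alternative settings.

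**Figure D3:**
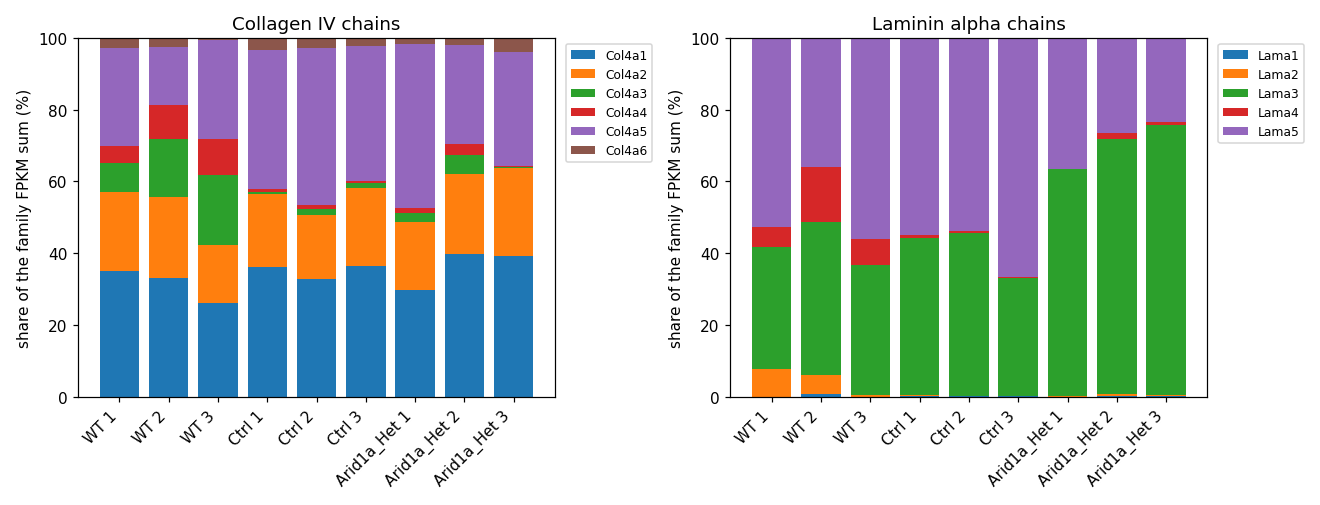
Share of each chain in the FPKM sum of its family, in percent, 1 bar per library, for collagen IV (left) and the laminin alpha chains (right). Col4a3 and Col4a4 fill 12.9 to 29.4% of the WT bars and at most 8.35% of the others. Lama3 fills 63.3 to 75.3% of the Arid1a_Het bars and 33.0 to 45.5% of the other 6.

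Among the laminin chains the called genes were alpha chains, which set the receptor that a laminin binds. Lama3, the alpha chain of laminin-332, lies on chromosome 18. It was at 0.994, 1.59 and 1.1 FPKM in WT, 11.6, 10.6 and 19.3 in Ctrl, and 14.6, 5.86 and 22.3 in Arid1a_Het. The lowest transgenic library, Arid1a_Het 2, was still above the highest WT library. Lama3 rose in Ctrl by a log2 of 2.70 (SE 0.40, adjusted p = 0.00601, limma) and was called in all 23 alternatives.

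Lama5 (chr2:180176373-180225859), the alpha chain of the laminins under most adult epithelia, was at 1.54, 1.34 and 1.7 FPKM in WT, 14.6, 12.5 and 38.8 in Ctrl, and 8.44, 2.2 and 6.95 in Arid1a_Het. The 3 groups did not overlap, with WT lowest, Ctrl highest and Ctrl 3 far above the other 2 Ctrl libraries. It rose in Ctrl by a log2 of 3.01 (SE 0.47, adjusted p = 0.00724, limma), again in all 23 alternatives. Together Lama3 and Lama5 made up 78.6 to 92.2% of the laminin alpha sum in WT, 98.7 to 99.6% in Ctrl and 97.5 to 99.8% in Arid1a_Het. That sum was 2.93 to 3.72 FPKM in WT, 23.3 to 58.4 in Ctrl and 8.26 to 29.6 in Arid1a_Het.

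No beta or gamma chain of the set was called in Ctrl. Lamb3, the beta chain of laminin-332, was at 35.6, 40.9 and 27.1 FPKM in WT, 47.5, 45.7 and 64.0 in Ctrl, and 47.1, 54.1 and 79.9 in Arid1a_Het. WT lay below both other groups, but the difference in Ctrl was not called (log2 0.59, SE 0.24, adjusted p = 0.125, limma). Lamb3 held 75.5 to 85.5% of the laminin beta sum in all 9 libraries. Lamb2, the beta chain of laminins rich in muscle and kidney, ranged from 5.13 to 14.1 FPKM with overlapping groups. Lamc1, the gamma chain of most laminins, was at 8.92 to 15.7 FPKM in WT, 17.4 to 26.4 in Ctrl and 15.7 to 29.4 in Arid1a_Het, and was not called in Ctrl (log2 0.75, SE 0.27, adjusted p = 0.0993) as reported, while it was called with the replicate block (adjusted p = 0.0295) and without WT 1 and Arid1a_Het 3 (adjusted p = 0.0451).

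Lama3 and Lamb3, which meet in laminin-332, were not at equal levels: Lamb3 stood at 24.7 to 35.8 times Lama3 in WT, 3.32 to 4.31 times in Ctrl and 3.22 to 9.24 times in Arid1a_Het. The WT ratios lay above all 6 others. The size of each ratio also depends on the transcript length used for either gene. The remaining chains were faint and not tested: Lama1 of embryonic membranes held 0 to 17 reads, Lama2 of muscle 3 to 87, Lama4 of vessels 12 to 181 and Lamb1 42 to 522.

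The linkers and proteoglycans split by gene. Nid1 (chr13:13437551-13512269), which bridges laminin and collagen IV, was at 1.03, 1.14 and 0.206 FPKM in WT, 9.61, 9.13 and 17.5 in Ctrl, and 7.53, 4.85 and 14.9 in Arid1a_Het. All 6 transgenic libraries were above WT, and WT 3 was the lowest. It rose in Ctrl by a log2 of 2.86 (SE 0.39, adjusted p = 0.00465, limma), in all 23 alternatives. Its paralog Nid2 had the opposite order in part: 1.29, 0.926 and 0.0881 FPKM in WT, 0.172, 0.243 and 0.265 in Ctrl, and 0.0286, 0.253 and 0.578 in Arid1a_Het, on 4 to 146 reads. The Nid2 groups overlapped, and the gene was not tested.

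Agrn (chr4:156165290-156197488), the proteoglycan that binds laminin and dystroglycan, was at 10.5, 10 and 11.2 FPKM in WT, 21.2, 22.6 and 29.5 in Ctrl, and 27.0, 17.3 and 28.4 in Arid1a_Het, with WT below all others. It rose in Ctrl by a log2 of 1.12 (SE 0.20, adjusted p = 0.014, limma). Without Ctrl 3 the call was lost (adjusted p = 0.0614). Hspg2 (chr4:137468769-137570630), perlecan, was at 2.86, 5.39 and 1.88 FPKM in WT, 0.768, 0.521 and 0.786 in Ctrl, and 0.459, 1.17 and 1.16 in Arid1a_Het. WT lay above both other groups, and Hspg2 fell in Ctrl by a log2 of 1.30 (SE 0.29, adjusted p = 0.0262). That call was lost without WT 2 or any single Ctrl library, without the filter, and without the libraries with pancreas reads, with adjusted p up to 0.0867.

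Windows of the 250 bases before each RefSeq transcript start were found in the RefSeq table (GRCm38.p6) for 24 of the 32 genes, as 30 windows. They were searched on both strands for GTGGGAA, a full site of the Notch partner RBPJ, its core TGGGAA (which lies within it), TGANTCA of AP-1 and GGAATG of TEAD factors. GTGGGAA was in the windows of Hspg2 and Col4a5, 6.67% of the 30, against 5.42% of 32851 windows of all genes. TGGGAA was in 33.3% of the windows, of 9 genes, against 21.6%. TGANTCA was in 0 against 6.75%, and GGAATG in 13.3% (Lamb3, Itgb1, Col18a1 and Nid1) against 12.6%. A match is a run of letters and no evidence of binding, and a missing match says only that the letters are not in the window. GTGGGAA thus occurs upstream of 1 gene that rose (Col4a5) and 1 that fell (Hspg2). Shown, on the plus strand, are the stretches up to the GENCODE start of Col4a5, as the example that rose, and of Nid1, the gene of the set with the lowest adjusted p.
Col4a5: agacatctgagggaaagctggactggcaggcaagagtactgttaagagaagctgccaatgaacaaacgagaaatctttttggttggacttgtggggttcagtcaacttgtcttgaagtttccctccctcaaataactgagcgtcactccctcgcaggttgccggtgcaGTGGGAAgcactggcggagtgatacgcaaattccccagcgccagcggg
Nid1: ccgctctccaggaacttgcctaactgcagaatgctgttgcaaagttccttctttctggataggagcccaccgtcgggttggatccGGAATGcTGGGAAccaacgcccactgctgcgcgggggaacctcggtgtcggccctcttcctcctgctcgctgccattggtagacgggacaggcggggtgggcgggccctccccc
The first is chrX:141475169-141475384, with GTGGGAA in capitals, and the second chr13:13437352-13437550, with GGAATG and then TGGGAA in capitals.

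Dystroglycan (Dag1), the receptor that binds laminin, agrin and perlecan, was among the highest of the 32 genes at 86.1, 82.2 and 74.2 FPKM in WT, 63.8, 61.9 and 49.0 in Ctrl, and 72.0, 80.6 and 76.5 in Arid1a_Het. The Ctrl libraries lay below all 6 others. The log2 difference of Ctrl against WT, -0.47 (SE 0.14), had an adjusted p of 0.065 in limma, and it was called lower with the replicate block (adjusted p = 0.0411), under median-ratio scaling and under quantile normalization.

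All 6 integrin alpha chains had positive differences in Ctrl, as did 7991 of the 11209 tested genes. Of the 6, 2 were called, against 7.01% of all tested genes called higher. Itga2 (chr13:114833081-114932100), the alpha chain of the collagen and laminin receptor alpha2 beta1, was at 4.8, 0.568 and 1.83 FPKM in WT, 21.5, 17.9 and 28.5 in Ctrl, and 17.0, 4.73 and 29.1 in Arid1a_Het. Ctrl lay above WT throughout, and Arid1a_Het 2 lay just under WT 1. It rose in Ctrl by a log2 of 2.98 (SE 0.61, adjusted p = 0.0197, limma), and its share of the integrin alpha sum was 0.769 to 4.56% in WT and 12.6 to 13.0% in Ctrl. Itga5 (chr15:103344286-103366763), of the fibronectin receptor alpha5 beta1, was at 2.02, 1.03 and 0.973 FPKM in WT, 4.12, 3.23 and 4.44 in Ctrl, and 2.53, 1.79 and 4.85 in Arid1a_Het, and rose in Ctrl by a log2 of 1.09 (SE 0.29, adjusted p = 0.0434). Both calls were lost without WT 2, WT 3 or any single Ctrl library (adjusted p up to 0.0865 for Itga2 and 0.146 for Itga5), and that of Itga5 in 7 further settings, among them both scalings and voom.

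The other alpha chains were not called. Itga6, the partner of Itgb4 in hemidesmosomes, was at 42.6, 29.6 and 39.3 FPKM in WT, 65.9, 57.9 and 67.5 in Ctrl, and 65.7, 42.5 and 84.4 in Arid1a_Het, without overlap between WT and Ctrl (log2 0.78, SE 0.24, adjusted p = 0.0704, limma). Itga3, the other laminin receptor chain, ranged from 30.7 to 42.4 in WT and from 43.0 to 95.3 in Ctrl (log2 0.82, SE 0.31, adjusted p = 0.112). Itga1 of the collagen receptor ranged from 1.75 to 5.35 and from 4.95 to 7.58 (log2 0.84, SE 0.35, adjusted p = 0.134), and Itgav from 7.28 to 10.2 and from 11 to 16.8 (log2 0.59, SE 0.24, adjusted p = 0.132). With the replicate block Itga6, Itga1 and Itga3 were called higher, at adjusted p of 0.0174, 0.0172 and 0.0354. Itga6 was also called in a fit of only WT and Ctrl, without Arid1a_Het 2, without Arid1a_Het 3, and without WT 1 and Arid1a_Het 3, at adjusted p of 0.0251 to 0.0462.

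No beta chain was called higher or lower in Ctrl by limma, and 1 of the 4 tested had an unadjusted p under 0.05, against 32.1% of all tested genes. With voom on whole reads 0 were called as well. Itgb1, the common partner of the collagen, laminin and fibronectin receptors, was at 96.9, 89.5 and 101 FPKM in WT, 134, 114 and 149.6 in Ctrl, and 135, 93.9 and 169.6 in Arid1a_Het. The WT and Ctrl libraries did not overlap, and Itgb1 held 50.4 to 59.3% of the integrin beta sum in every library. Itgb4, the hemidesmosomal chain, was at 54.3, 25.9 and 36.5 in WT, 72.2, 49.1 and 105 in Ctrl, and 63.6, 43.2 and 75.8 in Arid1a_Het, with overlap (log2 0.93, SE 0.34, adjusted p = 0.104, or 0.018 with the block). Itga6 stood at 0.644 to 1.18 times the level of its partner Itgb4 over the 9 libraries. The alphav partners Itgb5 and Itgb6 ranged from 25.5 to 36.1 and from 6.49 to 13.0 FPKM with overlapping groups, and Itgb8 held 7 to 47 reads and was not tested.

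**Figure D4:**
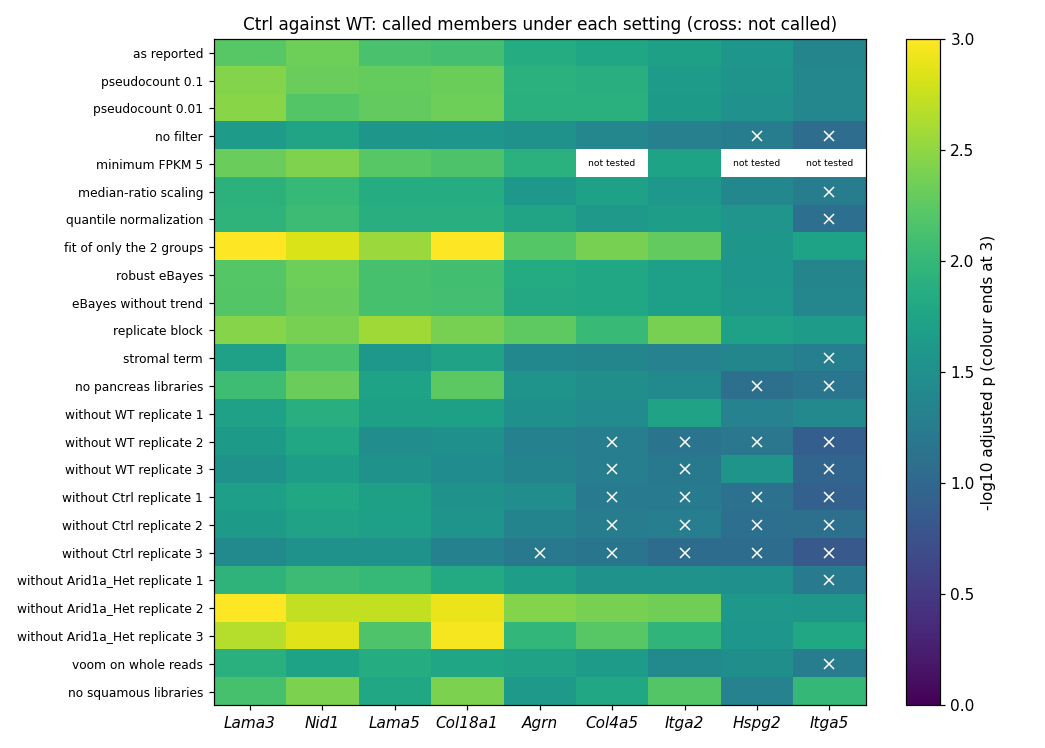
Minus log10 of the adjusted p of the 9 genes called in Ctrl against WT (columns) under the reported and 23 alternative settings (rows), with colour ending at 3. A cross marks a setting without the call. Lama3, Nid1, Lama5 and Col18a1 have no cross, Agrn has 1, Col4a5 and Itga2 have 5 each, Hspg2 has 6 and Itga5 has 12.

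Arid1a_Het against Ctrl asks what differs with the floxed copy of Arid1a on top of both transgenes. Of the 23 tested genes 0 were called in limma and 0 by voom, and 2 had an unadjusted p under 0.05, Lama5 and Dag1. Over all 11209 genes 0.00892% were called, a single gene that fell, Mir7688 (named after its value was seen, log2 -3.33, SE 0.23, adjusted p = 0.00127), and 11.6% had an unadjusted p under 0.05. Mir7688 held 13, 14 and 13 reads in Ctrl and 0 in each Arid1a_Het library. It passed the filter only through Ctrl, so it had to differ, and its call supports no statement. The median log2 fold change was -0.04 over the 23 genes and -0.16 over all tested genes.

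Lama5 was the gene of the set that stood furthest apart between these groups: 14.6, 12.5 and 38.8 FPKM in Ctrl against 8.44, 2.2 and 6.95. The groups did not overlap, and the Arid1a_Het mean (5.86 ± 3.26, SD, n = 3) was 0.266 of the Ctrl mean (22.0 ± 14.6). The fitted log2 difference of -1.71 (SE 0.47) had an adjusted p of 0.356 in limma, and of 0.12 to 0.972 over the alternatives. Of all tested genes 22.2% lay lower in Arid1a_Het without overlap, and 1 of the 23 did. Dag1 was the 1 gene that lay higher without overlap, at 72.0, 80.6 and 76.5 against 63.8, 61.9 and 49.0, against 2.41% of all tested genes (adjusted p = 0.402).

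Lama3 had means of 13.8 ± 4.73 FPKM in Ctrl and 14.3 ± 8.23 in Arid1a_Het (SD, n = 3), and its groups overlapped. The share of Lama3 in the laminin alpha sum was 63.3, 70.9 and 75.3% in Arid1a_Het and 43.7, 45.5 and 33.0% in Ctrl, with 33.9, 42.6 and 36.2% in WT. All 3 Arid1a_Het libraries lay above the 6 others, and the share of Lama5 was 23.5 to 36.5% in Arid1a_Het and 53.8 to 66.5% in Ctrl. Itga2 had a log2 difference of -0.67 (SE 0.61, adjusted p = 0.641, limma), which was 0.00 without Arid1a_Het 2. Arid1a_Het 2 was the lowest Arid1a_Het library for Lama3, Lama5, Nid1, Col18a1, Agrn and Itga2, and the highest of that group for the gastric enzyme gene Pgc at 80305 FPKM, against 12881 and 7049. Whether that library's gland makeup plays a part in these values was not tested.

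Arid1a_Het against WT asks what differs with all 3 alleles together, and tumour tissue cannot be told apart from them. In limma 5 of the 23 genes rose, against 2.06% of all tested genes, and 0 fell, against 0.687% (2.75% either way). Without overlap 8 lay higher and 1 lower, against 10.6% and 8.57% of all tested genes. The called genes were Lama3 (log2 2.62, SE 0.40, adjusted p = 0.0126), Nid1 (2.41, SE 0.39, adjusted p = 0.0149), Agrn (1.09, SE 0.20, adjusted p = 0.0274), Col18a1 (1.87, SE 0.37, adjusted p = 0.032) and Col4a5 (1.0, SE 0.22, adjusted p = 0.045). The comparison shares its WT libraries with that of Ctrl, so calls made in both are not independent. Values that missed the threshold were 2.31 for Itga2 (SE 0.61, adjusted p = 0.0842), -1.12 for Hspg2 (SE 0.29, adjusted p = 0.0801) and 1.30 for Lama5 (SE 0.47, adjusted p = 0.19). A further 10 genes had uncalled differences of at least 0.5, from 0.52 for Lamb2 to 0.88 for Itga1, at adjusted p of 0.125 to 0.424. At an unadjusted p under 0.05 there were 14 of the 23 genes, against 17.2% of all tested genes.

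These 5 calls rest on few libraries. Without WT 3, without Arid1a_Het 1 or without the 2 libraries with pancreas reads 0 genes were called. The same held without WT 1 and Arid1a_Het 3, the 2 libraries highest in Krt5 and Krt14. Over these fits the adjusted p reached 0.0717 for Lama3 and 0.0647 for Nid1. Leaving out Arid1a_Het 2 gave 8 calls, and leaving out any other single library 2 or 3. Calls on the higher side over all tested genes moved as well. They went from 231 to 97 without the libraries with pancreas reads and to 95 without WT 1 and Arid1a_Het 3. Their range with a library left out is given at the end.

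Stromal markers differed widely within groups. Dcn, the most abundant fibroblast marker, was at 28.2, 60.3 and 5.82 FPKM in WT, 8.4, 5.01 and 12.4 in Ctrl, and 1.83, 16.4 and 31.8 in Arid1a_Het. The libraries high in Dcn (WT 1, WT 2 and Arid1a_Het 3) were also the 3 highest for Lamb1 and Nid2, and WT 1 and WT 2 the 2 highest for Hspg2 and Lama2. Other genes followed Dcn less. Col4a1 and Col4a2 were highest in Arid1a_Het 3, but WT 1 lay below all libraries except WT 3, and Lama4 was lower in WT 1 than in WT 3. Hspg2 in WT 3, at 1.88 FPKM, was above all Ctrl libraries. In WT 3 Dcn was at 5.82, within the Ctrl range, and the endothelial marker Cdh5 at 0.0216, below it. Plvap, also endothelial, was at 2.91 in WT 3, above the 0.673 to 1.6 of Ctrl. The part of stroma in the Hspg2 values was not tested. Of 11 fibroblast markers 7 were tested and 0 called in limma in Ctrl against WT (0 had an unadjusted p under 0.05). Their median log2 fold change was nonetheless -1.06, with 1 of the 7 positive, against 0.24 over all tested genes. The spread was wide, with an SE of 0.96 around -1.34 for Dcn. Among 11 smooth muscle markers 6 were tested, with a median of -0.73, of which Notch3, itself part of the Notch pathway, rose. Notch3 stayed under 1 FPKM in every WT library, so it passed the filter only where it was high. Of 11 endothelial markers 3 were tested and 0 called, but 2 had an unadjusted p under 0.05, Plvap on the lower side (log2 -1.33, SE 0.40, adjusted p = 0.0624) and Tek on the higher (0.87, SE 0.25, adjusted p = 0.0574). Both were called with the replicate block, at adjusted p of 0.0469 and 0.0488. Endothelial markers summed to 7.38 to 17.5 FPKM in WT, 7.02 to 8.11 in Ctrl and 6.91 to 11.3 in Arid1a_Het, and Cdh5 stayed under 1 FPKM in all 9.

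With the mean of the 33 stromal markers as a covariate, 7 of the 8 genes called higher in Ctrl kept the call (Itga5 lost it), and so did Hspg2 on the lower side, while calls over all tested genes went from 786 to 446 higher and from 341 to 163 lower. The 33 markers include those too faint to test, and also Notch3 and Tek, which lay higher in Ctrl than in WT without overlap. The covariate thus holds part of the genotype difference, and a kept call does not show that stroma has no part. In Arid1a_Het against WT that fit called Lama3, Nid1, Agrn and Col18a1 higher and Hspg2 lower (adjusted p = 0.0452). Of 11 squamous markers 7 were tested in Ctrl against WT, and 2 were called, both higher (Sprr1a and Ivl). Ivl stayed under 1 FPKM in every WT library, so it passed the filter only where it was high. The 11 markers summed to 419, 96.9 and 46.8 FPKM in WT, 255, 305 and 759.7 in Ctrl, and 348, 204 and 735 in Arid1a_Het. Sprr1a alone was at 647 FPKM in Ctrl 3 and 559 in Arid1a_Het 3. In contrast, Krt13, Lor and Sprr3 were highest in WT 1, at 126, 145 and 54.1, and Krt5 was at 3.52 to 4.57 in Ctrl. Ctrl 3, highest in the squamous sum, was also highest in Lama5, Nid1, Itga3 and Itgb4. Without Ctrl 3 the calls on the higher side went from 8 to 4 (Lama3, Lama5, Nid1 and Col18a1), and those over all tested genes from 786 to 209. The part of squamous cells in these values was not tested.

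**Figure D5:**
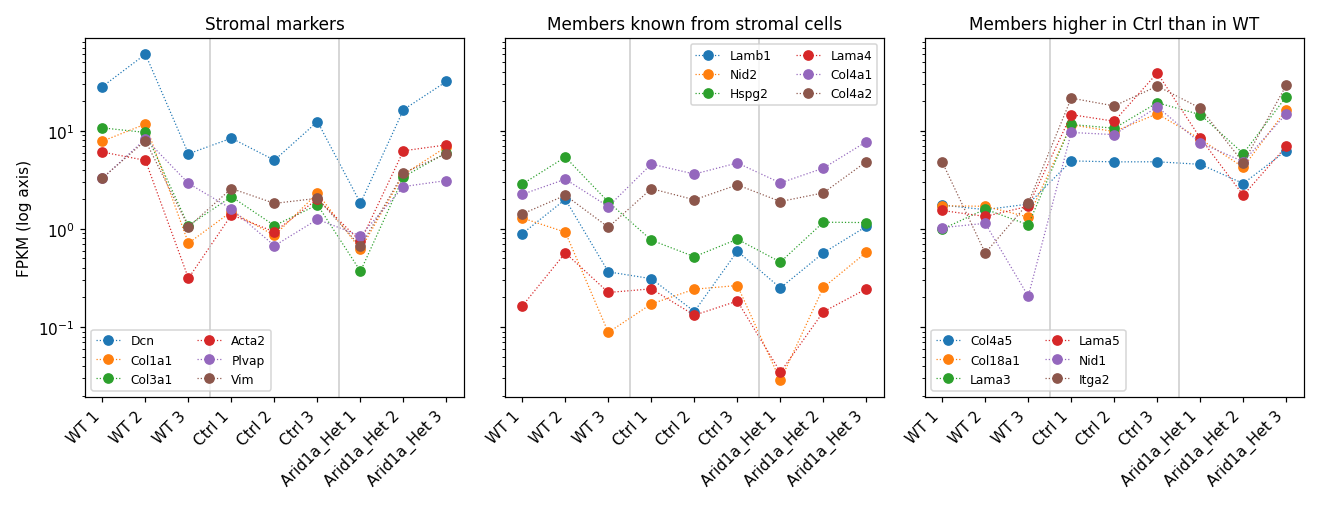
FPKM on a log axis in each library for 6 stromal markers (left), 6 genes of the set that stromal cells are known to make (middle) and 6 genes called higher in Ctrl (right). Dotted lines only join the points of a gene. Dcn runs from 1.83 to 60.3 FPKM, and the genes on the right are higher in the 3 Ctrl libraries than in the 3 WT libraries.

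Other genes of matrix and adhesion were taken from 5 lists of 96 symbols, of which 92 are in the table and 65 were tested. In Ctrl against WT limma called 10 of the 65 higher and 2 lower, against 7.01% and 3.04% of all tested genes. These shares also stand beside the counts of each list below. The median log2 fold change of the 65 was 0.30, near the 0.24 of all tested genes. In Arid1a_Het against Ctrl 0 were called, against 0.00892% of all tested genes, and 4 had an unadjusted p under 0.05, against 11.6%. In Arid1a_Het against WT 2 rose (Smoc1 and Sdc1) and 1 fell (Itga7), against 2.06% and 0.687% of all tested genes. Without Arid1a_Het 2 that count of 2 was 11, and without WT 3 it was 1. Counts over all tested genes also varied when a library was left out, over the range given at the end. The lists were drawn up with earlier results of these data known, so their counts describe and do not support.

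Of 10 other basement membrane genes tested, 1 rose in Ctrl, Smoc1 (a calcium-binding matrix protein, log2 1.2, SE 0.23, adjusted p = 0.0169), and Frem2 of the Fraser complex fell (-1.29, SE 0.28, adjusted p = 0.024). Of 6 other integrin chains Itgax, a leukocyte chain, rose (1.33, SE 0.32, adjusted p = 0.0334), and Itga7, a laminin receptor chain best known from muscle, fell (-0.91, SE 0.18, adjusted p = 0.018). Itgax stayed under 1 FPKM in every WT library and Frem2 in every Ctrl library. Both passed the filter only where they were high and had to differ. Itga7 was at 15.5, 15.5 and 11.2 FPKM in WT and 5.6 to 8.02 in the 6 others. Of 8 matrix ligands Tgfb1, which alphav integrins activate, rose (1.59, SE 0.32, adjusted p = 0.0194), as did Mfge8, which they bind (1.09, SE 0.29, adjusted p = 0.0443).

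In the adhesion machinery 4 of 26 genes tested rose: the syndecan Sdc1 (log2 1.34, SE 0.18, adjusted p = 0.00421, limma), the tetraspanin Cd9 (1.29, SE 0.26, adjusted p = 0.0183), the focal adhesion protein Zyx (1.22, SE 0.25, adjusted p = 0.0194) and the actin crosslinker Flna (1.96, SE 0.45, adjusted p = 0.0279). Sdc1 was at 78.7, 65.5 and 79.0 FPKM in WT, 169, 208 and 191 in Ctrl, and 252, 182 and 265 in Arid1a_Het, with WT below all others, and kept its call in all 23 alternatives in Ctrl and in Arid1a_Het against WT (1.62, SE 0.18, adjusted p = 0.00272). Of 15 assembly enzymes 2 rose, Pxdn, which crosslinks collagen IV (1.81, SE 0.43, adjusted p = 0.0326), and Colgalt1, which glycosylates collagen (1.36, SE 0.34, adjusted p = 0.0383). Pxdn was at 0.109, 0.176 and 0.0136 FPKM in WT, so it passed the filter only where it was high and had to differ. Sdc1 aside, each of the 12 calls was lost in at least 3 alternatives, most often when a WT or Ctrl library was left out. Of all 5 lists, 1 gene was called higher without WT 3 or Ctrl 2, 2 without WT 2, Ctrl 1 or Ctrl 3, and 16 without Arid1a_Het 3. Over all tested genes, in the same order, 314, 274, 297, 296, 209 and 967 were called higher.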

How the data were processed

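Stomach corpus glands of 3 genotypes were sequenced as poly(A) RNA in 9 libraries with a stranded kit, per the labels. The authors deposited FPKM values for 18423 genes. Reads were aligned with STAR 2.4.2a to GRCm38 (mm10), per the submitters' processing notes. The counting tool and its use of strand are not given in the sources used here. Whole reads were worked out from the FPKM steps, within 0.01 reads for all 18423 genes (22651385 to 29478481 a library), and served for depth and voom.

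Groups came from the genotype labels. limma 3.58.1 in R 4.3.3 (lmFit, eBayes with trend) was run on log2(FPKM + 1) of the 11209 genes that reached FPKM 1 in 3 or more libraries, leaving out 7214, with 3 group means and Benjamini-Hochberg adjustment over all tested genes, called under 0.05. Fold changes are on that scale and understate changes of low genes. The fit was tested on simulated data. Same-numbered WT and Ctrl libraries deviated together (correlations 0.207, 0.336 and 0.138, each best with its own number), so the numbers were taken to pair them, on the data alone. Arid1a_Het numbers did not pair.

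The 32 genes and all lists were chosen with earlier results of these data known. All 32 are named, with a fold change only where called or at least 0.5 in size (Dag1 and Mir7688 were added after their values were seen); of the other lists, called genes, at most 4 in each direction. 1 gene that the naming rule takes is not reported here and was left out of the lists. Alternatives were other pseudocounts, filters, scalings, eBayes settings, a fit of only 2 groups, the replicate block, a stromal covariate, no pancreas libraries, voom and each library left out. A fit without WT 1 and Arid1a_Het 3, the 2 libraries highest in Krt5 and Krt14 (no squamous libraries, below), was chosen after seeing the data. Positions are from GENCODE M21, sequences from RefSeq. Python 3.11.15, numpy 2.4.6, pandas 2.3.3 and matplotlib 3.10.9 were used.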

Additional observations from a re-analysis of the deposited data

How the results depend on the processing

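Of 1182 alternative values of 52 named gene results, 1002 kept direction and side of the threshold, 161 lost a call, 18 gained one and 1 changed sign, Itga2 in Arid1a_Het against Ctrl, which was not called (from -1.2 to 0.00 with a library left out, the latter without Arid1a_Het 2). The causes were not tested, except that leaving out libraries leaves fewer samples. Counts below are basement membrane and integrin genes, then the other lists, then all tested genes. For Ctrl against WT, higher (8, 10 and 786 as reported): the replicate block gave 13, 18 and 1804; without the pancreas libraries 6 of the other lists and 429 of all genes; no filter 6 of the other lists; a fit of only these groups 17; the stromal term 446 of all genes; and a minimum FPKM of 5, 497. Lower (1, 2 and 341): the block gave 2, 4 and 669; quantile normalization 2, 4 and 703; median-ratio scaling 2 of the set and 619 of all; no pancreas libraries 0, 1 and 145; the stromal term 1 of the other lists and 163 of all; a minimum of 5, 0 of the set and 1 of the other lists; no filter 0 of the set. For Arid1a_Het against WT, higher (5, 2 and 231): the block gave 9, 7 and 445, though numbers do not pair here; no pancreas libraries 0 of the set and 97 of all; no squamous libraries 0, 1 and 95; no filter 1 of the set and 95 of all; only 2 groups 2 of the set and 96 of all; voom 3 of the set; pseudocounts 0.1 and 0.01 and median-ratio scaling 4 of the other lists each. Lower (0, 1 and 77): the stromal term gave 1 of the set; the block 2 of the other lists and 246 of all; no filter 0 and 45, only 2 groups 0 and 16, no pancreas libraries 0 and 17, no squamous libraries 0 and 19; median-ratio scaling 0 of the other lists; a minimum of 5, 44 of all. For Arid1a_Het against Ctrl all genes (0 higher, 1 lower) came to 1 higher and 4 lower with only 2 groups; lower were 4 without filter, 2 each at a minimum of 5, under quantile normalization and with the block, 7 without pancreas and 16 without squamous libraries, and 0 with either pseudocount and with voom. With each library left out, the set gave 4 to 9 higher and 0 to 1 lower in Ctrl against WT, 0 to 8 and 0 to 0 in Arid1a_Het against WT, and 0 in Arid1a_Het against Ctrl. The other lists gave 1 to 16 higher and 0 to 3 lower, then 1 to 11 and 0 to 2. All genes gave 209 to 1068 and 42 to 405, then 78 to 532 and 11 to 194, and 0 to 2 and 0 to 20 in Arid1a_Het against Ctrl. The block changed no call of the set in Arid1a_Het against Ctrl. With 3 libraries a group, an exact two-sided permutation test of a single gene cannot give a p under 0.1, and 9 of the 32 genes were too faint to test.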
